A study of Mus musculus with 6 samples.

Results

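The ligands and receptors of the vascular endothelial growth factor (VEGF) and angiopoietin systems were followed in 6 mouse hearts. These are Vegfa, Vegfb and Vegfc with their receptors Kdr, Flt1 and Flt4, and Angpt1 and Angpt2 with their receptor Tek and its partner Tie1. The 10 genes were selected by name and are covered by 19 of the 45037 probe sets on each array, every probe set that the platform annotation gives to the gene alone. Tie1 was singled out, chosen by its measured difference between mutant and wild-type hearts in an earlier reading of these data, so the genotype differences below are a description and carry no test. The hearts came from 3 mice labelled EphB4 Mutant and 3 labelled wild type, all with the strain entry C57B6, and total RNA of each heart was hybridised to its own Affymetrix mouse expression array. The product of Ephb4 is a tyrosine kinase receptor for ephrin-B2 that endothelium carries. The sources used here do not give the kind of allele, the age of the animals or whether a heart is embryonic. The sample descriptions begin with the letters eM for mutant 3 and wild-type 3 and with eI for mutants 1 and 2 and wild-types 1 and 2, and the labels do not say what the letters mean. In GRCm38.p6, Tek and Tie1 lie on chromosome 4, Kdr and Flt1 on 5, Vegfc and Angpt2 on 8, Flt4 on 11, Angpt1 on 15, Vegfa on 17 and Vegfb on 19. Values are log2 intensities, and a difference of 1 log2 is 2-fold. No level is set against that of another probe set, because probes differ in brightness.

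VEGF ligands are secreted by muscle and other cells and bind receptor tyrosine kinases on endothelium, where they drive the growth, survival and permeability of vessels. Kdr carries most of the Vegfa signal, Flt1 binds Vegfa tightly but signals weakly and acts largely as a trap, and Flt4 is the receptor of Vegfc, known best from lymphatic vessels. Angpt1 activates Tek and steadies vessels, Angpt2 can oppose it, and Tie1 binds no angiopoietin strongly by itself but pairs with Tek. In the mouse heart these receptors mark the endocardium and the coronary endothelium, and loss of Angpt1 or Tek in mice disturbs the forming chamber wall.

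The hearts differed far more by their letters than by genotype. Over the 27022 tested probe sets, component 1 of a principal component analysis took up 60.4% of the variance and placed mutant 3 at 52.6 and wild-type 3 at 34.1, against -24.3 to -17.9 for the eI hearts. On the second (18.4%), wild-type 1 lay at -33.8 and the remaining hearts at -2.7 to 21.9. The 3-prime minus 5-prime difference of control probes grows as RNA degrades. For beta-actin it was 0.77 and 0.51 in the eM hearts and 0.28 to 0.41 in the eI hearts. For Gapdh the groups lay closer, at 0.12 and 0.03 in the eM hearts and -0.1 to 0.02 in the eI hearts. Mutants 1 and 3 had Xist levels of 6.73 and 6.78 and the remaining hearts 11.51 to 12.33, so the sexes were not balanced between genotypes. The 9 tested heart muscle markers averaged 13.80 and 13.77 in the eM hearts and 13.50 to 13.57 in the eI hearts. Their median eM minus eI difference was only 0.04, and 5 of the 9 differences were positive. Ttn (1.64) and Myh6 (0.67) differed most. All 12 endothelial markers passed the filter on low values, so both the tissue and the cell type that bears these receptors were represented. In whole hearts, fewer cells of a type and less RNA per cell cannot be told apart.

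The sequence around a transcript start is shown for 5 of the genes. They were taken because Vegfc was called lower in the eM hearts, and Tek read lower and Kdr and Flt1 higher there without passing the test. Tie1 was singled out by its genotype difference, which was not called. Each window holds 250 bases before and 50 after the start of a RefSeq transcript, 5′ to 3′ on the strand of the gene, in build GRCm38.p6. The start used need not be the outermost one of the gene. The windows of Kdr and Flt1 lie wholly, and that of Tek mostly, within the annotated span of the gene. Tables of RefSeq promoters held a window for 8 of the 10 genes. Capitals mark CCGGAA and AGGAAG, short forms of the site of ETS factors, a family that many endothelial genes use, on either strand. Vegfc lies at chr8:54077282-54077581 (+), Tek at chr4:94739039-94739338 (+), Kdr at chr5:75978406-75978705 (-), Flt1 at chr5:147725962-147726261 (-) and Tie1 at chr4:118489800-118490099 (-).
Vegfc: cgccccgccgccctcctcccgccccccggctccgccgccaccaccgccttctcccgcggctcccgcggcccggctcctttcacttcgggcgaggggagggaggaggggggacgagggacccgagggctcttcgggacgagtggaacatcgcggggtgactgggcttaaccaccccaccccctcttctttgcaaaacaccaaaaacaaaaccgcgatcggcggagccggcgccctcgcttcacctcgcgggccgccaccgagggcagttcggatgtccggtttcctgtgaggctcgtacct
Tek: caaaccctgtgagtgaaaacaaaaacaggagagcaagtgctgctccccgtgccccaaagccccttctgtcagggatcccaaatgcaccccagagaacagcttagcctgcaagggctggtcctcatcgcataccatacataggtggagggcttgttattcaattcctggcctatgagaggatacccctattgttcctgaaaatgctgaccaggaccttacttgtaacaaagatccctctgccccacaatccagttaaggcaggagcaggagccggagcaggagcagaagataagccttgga
Kdr: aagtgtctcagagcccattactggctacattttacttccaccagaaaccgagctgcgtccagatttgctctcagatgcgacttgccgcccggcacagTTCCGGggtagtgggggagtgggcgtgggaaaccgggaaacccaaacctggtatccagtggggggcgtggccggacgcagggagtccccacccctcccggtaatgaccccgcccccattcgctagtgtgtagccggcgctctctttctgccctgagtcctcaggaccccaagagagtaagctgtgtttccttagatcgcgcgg
Flt1: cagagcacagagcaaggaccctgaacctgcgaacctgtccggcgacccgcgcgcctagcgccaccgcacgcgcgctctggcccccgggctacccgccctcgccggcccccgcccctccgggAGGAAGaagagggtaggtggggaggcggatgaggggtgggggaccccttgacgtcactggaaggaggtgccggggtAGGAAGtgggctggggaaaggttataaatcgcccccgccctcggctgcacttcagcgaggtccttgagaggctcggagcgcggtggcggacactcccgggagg
Tie1: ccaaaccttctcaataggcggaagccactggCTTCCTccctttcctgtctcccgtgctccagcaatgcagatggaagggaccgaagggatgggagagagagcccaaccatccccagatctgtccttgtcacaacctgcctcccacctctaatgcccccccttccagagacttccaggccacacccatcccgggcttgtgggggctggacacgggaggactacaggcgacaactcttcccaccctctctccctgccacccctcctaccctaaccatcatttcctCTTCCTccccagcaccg

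Among all 32851 promoter windows of this length, 14.9% held CCGGAA and 35.4% held AGGAAG. Kdr had 1 match of CCGGAA, and Flt1 and Tie1 each had 2 of AGGAAG, whereas the windows of Vegfc and Tek had neither. ACGTG, the core of the hypoxia response element, was found in 19.6% of all windows and of these genes only in the second window of Vegfa. GTAAACA, a forkhead site present in 3.6% of all windows, was in none of the 9 windows of these genes. The E-box CANNTG, which can overlap ACGTG and is present in 72.3% of windows, was in those of Vegfb, Kdr, Flt4, Tek and Tie1 and in the second of Vegfa. A match says only that these letters occur, and its absence says nothing of the factor.

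The eM and eI hearts differed in the VEGF and angiopoietin genes in a mixed direction. Vegfc was lower in the eM hearts and was the gene with a called difference. Tek, Vegfb and Flt4 were also below all eI hearts at a probe set, and Flt1 and Angpt2 above all of them, without passing the test. Of the 18 probe sets that passed the filter on low values, 1 was called lower and 0 were called higher in eM hearts at an adjusted p of 0.05 (limma with genotype as a covariate, Benjamini-Hochberg over all probe sets tested). Over all 27022, 11.7% were called, 6.75% higher and 4.94% lower, so the share among these genes was not above that background. At an unadjusted p under 0.05 the count was 6 of 18, where 29.2% of all probe sets passed. The eM and eI values did not overlap at 8 of the 18, 3 higher and 5 lower in eM, where 43.1% of all probe sets did not overlap. The median difference was -0.07 log2 over the 18 and -0.01 over all, and the median size without regard to sign was 0.23 and 0.18.

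**Figure D1:**
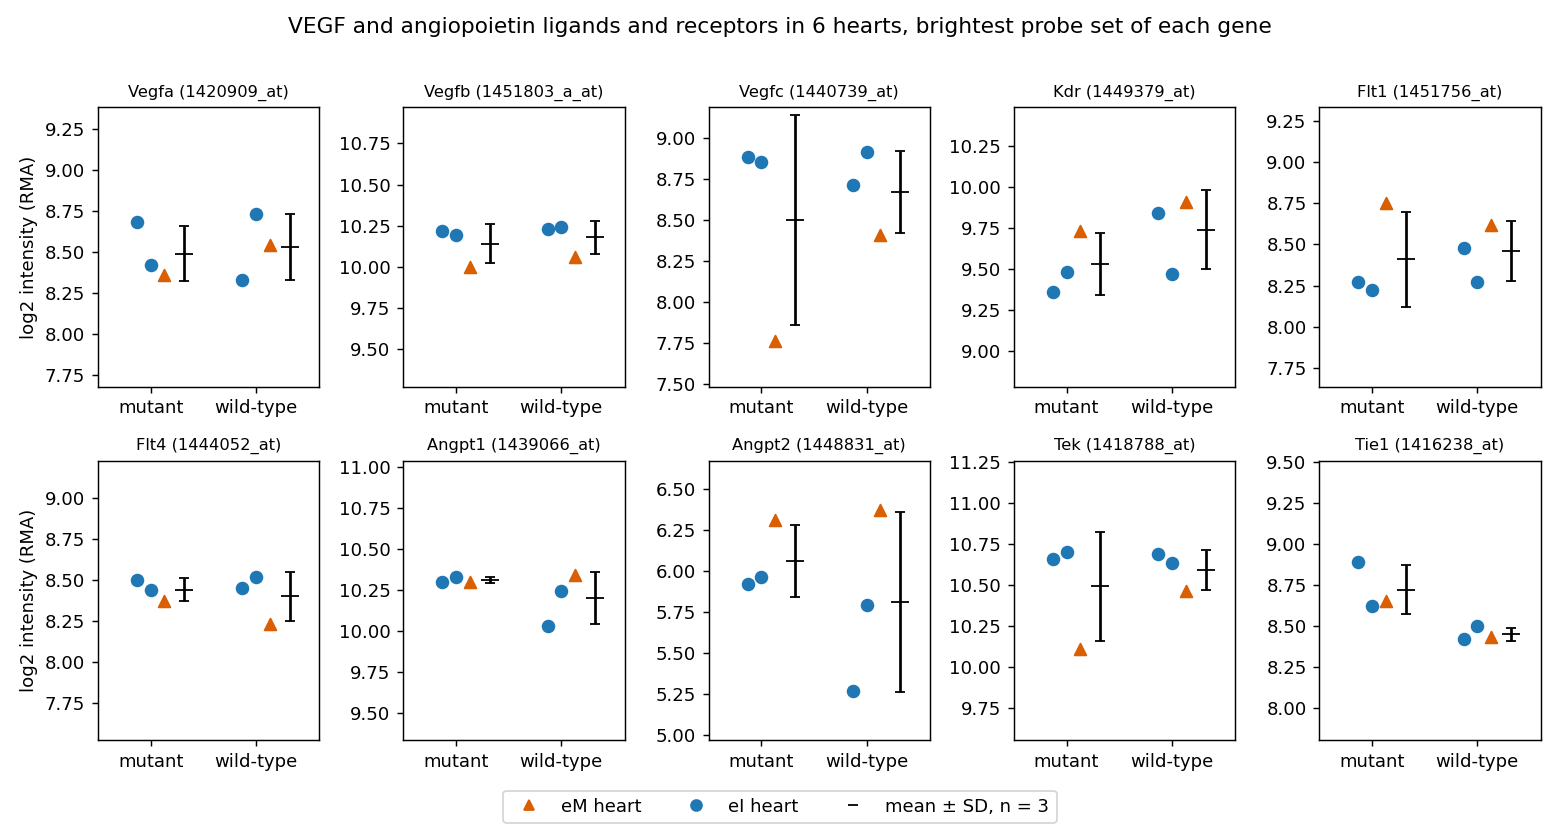
Log2 intensity in each heart at the brightest probe set of the 10 genes, mutant hearts left and wild-type hearts right, with eM hearts as triangles and eI hearts as circles; bars are mean ± SD of 3 hearts. Every panel spans the same log2 range. Vegfc was lowest in the eM hearts at 7.76 and 8.41, and Tie1 was above 8.6 in each mutant heart and at most 8.50 in each wild-type heart.

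Vegfc, the ligand of Flt4 and, after processing, of Kdr, showed the largest difference among these genes. At its brightest probe set (1440739_at) it read 7.76 in mutant 3 and 8.41 in wild-type 3, the eM hearts, against 8.88, 8.85, 8.71 and 8.91 in the eI hearts. Both eM hearts lay below all eI hearts, and mutant 3 lay farther down than wild-type 3. The difference was -0.75 ± 0.17 log2 (SE; 1.69-fold lower in eM; limma, adjusted p = 0.0405, n = 2 eM and 4 eI), with -1.10 within the mutant and -0.40 within the wild-type hearts. Its other probe sets gave the same direction without passing the test: 1419417_at differed by -0.67 ± 0.19 (adjusted p = 0.0746) and 1439766_x_at by -0.67 ± 0.29 (adjusted p = 0.186). The last of these, whose suffix marks probes that can also match other sequences, read 6.82 in mutant 3 but 7.81 in wild-type 3, inside the eI range of 7.62 to 8.19. Mutant 3 set part of the size: without it the difference was -0.40 (adjusted p = 0.293). Without mutant 1, mutant 2 or wild-type 2 the difference was -0.70, -0.71 and -0.76, and it missed the threshold in these fits on fewer hearts (adjusted p = 0.112, 0.132 and 0.0577).

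The other VEGF ligands differed little. Vegfb, a ligand of Flt1, read 10.00 and 10.06 in the eM hearts and 10.19 to 10.24 in the eI hearts. These values did not overlap, yet the difference was only -0.19 ± 0.08 (adjusted p = 0.192). Vegfa, the main ligand of Kdr, read 8.36 and 8.54 in the eM hearts and 8.33 to 8.73 in the eI hearts at 1420909_at, a difference of -0.09 with a 95% confidence interval of -0.45 to 0.27. Its dimmer probe set, 1451959_a_at, was 6.90 and 6.78 in eM and 6.71 to 6.88 in eI hearts, a difference of 0.02 with an interval of -0.20 to 0.24. Vegfa thus had no detectable difference with 6 arrays, within these bounds.

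Among the VEGF receptors, Kdr and Flt1 were higher in eM hearts and Flt4 was slightly lower, none past the threshold. Flt1 at 1451756_at read 8.75 in mutant 3 and 8.62 in wild-type 3, against 8.22 to 8.48 in the eI hearts, a difference of 0.38 ± 0.11 (adjusted p = 0.079), or 0.25 without mutant 3 (adjusted p = 0.481). At 1419300_at it read 7.58 and 7.83 in the eM hearts against 7.27 to 7.55 in the eI hearts, 0.27 ± 0.10 (adjusted p = 0.123). Both probe sets separated the letters without overlap. The remaining probe sets of Flt1 did not, with 0.13 ± 0.13 at 1440926_at and -0.08 ± 0.10 at 1454037_a_at, so the direction was not the same at all probe sets of Flt1; which transcripts each reads was not examined here. Kdr read 9.73 and 9.91 in the eM hearts and 9.36, 9.48, 9.84 and 9.47 in the eI hearts, 0.28 ± 0.13 (adjusted p = 0.201). The groups overlapped through wild-type 1. Flt4, at 8.37 and 8.23 in eM and 8.44 to 8.52 in eI hearts, differed by -0.18 ± 0.09 (adjusted p = 0.259; -0.10 without wild-type 3) at 1444052_at and by -0.06 ± 0.15 at 1421442_at.

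In the angiopoietin system, Angpt2 was higher and Tek lower in eM hearts, again short of the threshold. Angpt2, the ligand that can oppose Angpt1, read 6.31 and 6.37 in the eM hearts against 5.92, 5.96, 5.27 and 5.79 in the eI hearts at 1448831_at. It differed by 0.60 ± 0.18 (1.52-fold; adjusted p = 0.0812), and wild-type 1 was the lowest heart. Without wild-type 3 the difference was 0.37 (adjusted p = 0.442) and without mutant 3 it was 0.84 (adjusted p = 0.235). Its other probe set, 1459636_at, was the member left out as dim, at 4.04 to 4.26 in all hearts with a difference of 0.01. Tek, the angiopoietin receptor, read 10.11 in mutant 3 and 10.46 in wild-type 3, against a narrow 10.63 to 10.70 in the eI hearts, a difference of -0.38 ± 0.11 (1.3-fold lower; adjusted p = 0.0818). Like Vegfc, it was lowest in mutant 3, and the difference was -0.19 without that heart (adjusted p = 0.504) and -0.57 without wild-type 3 (adjusted p = 0.0705). Angpt1 lay within 10.30 and 10.34 in eM and 10.03 to 10.33 in eI hearts at 1439066_at (0.10 ± 0.11; adjusted p = 0.579), and its dim probe set 1421441_at gave -0.27 ± 0.19 (adjusted p = 0.39). Tie1, the partner of Tek, did not follow it: it read 8.65 and 8.43 in eM and 8.42 to 8.89 in eI hearts, -0.07 ± 0.11 with an interval of -0.33 to 0.20.

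Wild-type 1, the heart apart on the second component, bore on several of these values. Without it, limma called 5 of the 18 probe sets: Vegfc at 2 of them (1440739_at and 1419417_at), Flt1 at 0.44 (adjusted p = 0.0298), Kdr at 0.37 (adjusted p = 0.0498) and Angpt2 at 0.46 (adjusted p = 0.0307). The share of all probe sets called in that fit was not counted, so the count of 5 is not read as a result about these genes. With all hearts, trend and robust variance estimates added Tek to Vegfc among the calls, and the share of all probe sets called was not counted there either.

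**Figure D2:**
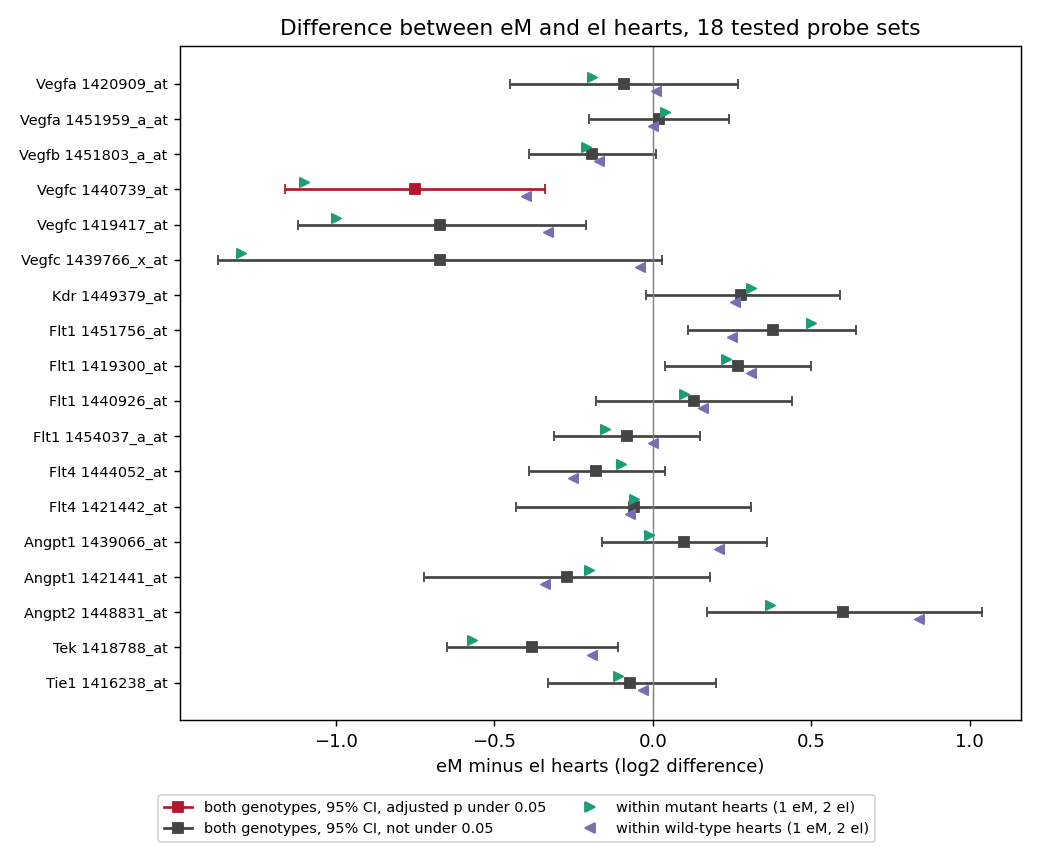
Log2 difference between eM and eI hearts for the 18 tested probe sets, with 95% confidence intervals from limma (squares), and the same difference within the mutant hearts and within the wild-type hearts (triangles). The interval of Vegfc 1440739_at ran from -1.16 to -0.34; within the mutant hearts the differences of the 3 Vegfc probe sets reached -1.30, and within the wild-type hearts they ran from -0.40 to -0.04.

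Endothelial markers as a whole were lower in the eM hearts, while Kdr, Flt1 and Angpt2 were not. The 12 markers averaged 8.40 and 8.43 in the eM hearts and 8.83 to 8.92 in the eI hearts, with a median difference of -0.59. In the gene-level fit 5 of them were called lower and 0 higher, where 5.82% of 13572 genes were called lower and 4.47% higher. The called markers were Emcn (-1.18), Egfl7 (-0.73), Esam (-0.71), Robo4 (-0.70) and Sox18 (-0.61), all genes of the vessel lining. Pecam1 (0.41) and Eng (0.20), 2 endothelial surface proteins, had positive differences that were not called. With the endothelial mean of each heart subtracted, Kdr differed by 0.74, Flt1 by 0.83 and Angpt2 by 1.06. Tie1 then differed by 0.39, Tek by 0.07 and Vegfc by -0.30. This subtraction shifted the difference of every probe set by the same amount and moved the median of all to 0.44. The order of the genes and their distances from the median were thus fixed to be those before it. It therefore adds nothing to the differences given above.

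Markers of several other cell types differed by the letters too, and their part in these results was not tested. Over all 13572 genes 5.82% were called lower and 4.47% higher, and the lists are short, so a list with 1 call is not set apart from that share. All 7 fibroblast and mesenchyme markers were lower in eM, and 2 were called. Their list means were 9.18 and 10.17 in eM hearts and 10.67 to 11.22 in eI hearts. All 6 macrophage markers were lower (4 called; 5.68 and 5.73 against 6.61 to 7.13), as were all 5 of platelets and megakaryocytes (1 called; 7.22 and 7.48 against 7.96 to 8.42), all 3 tested of the 6 of erythroid cells (2 called; 9.52 and 9.53 against 10.14 to 10.66) and all 5 of liver and endoderm (1 called; 5.31 and 5.61 against 6.91 to 8.97). In each of these lists and in the endothelial list, mutant 3 had the lowest mean, and it was also the lowest heart for Vegfc and Tek. Endocardial markers had a median of 0.07, with Hapln1, a cardiac jelly linker, called higher (1.11). Smooth muscle and pericyte markers had 2 called higher and a median of 0.05, and epicardial markers 2 called higher and a median of 0.02.

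Of 52 other genes of the 2 pathways, 48 were tested at gene level, and 2 were called higher and 3 lower in eM hearts. These shares were near the 4.47% and 5.82% called higher and lower over all 13572 genes. Among the other ligands and co-receptors, Nrp2, a co-receptor of Vegfc and semaphorins, was called higher: it read 8.75 and 8.79 in the eM hearts and 7.89 to 8.35 in the eI hearts (0.71 ± 0.14; limma, adjusted p = 0.036). Its relative Nrp1, a co-receptor of Vegfa, differed by 0.23 ± 0.11 without a call, and Vegfd, a ligand close to Vegfc, by -0.73 (adjusted p = 0.0747). Of the 14 signal transducers 2 were called lower, the adaptor Nck1 (-0.66 ± 0.11, adjusted p = 0.0256) and Tnip2, which binds Tek (-0.70 ± 0.15, adjusted p = 0.0392). Of 11 genes of oxygen sensing and hypoxia response, the oxygen sensor Egln3 was called lower (-0.84 ± 0.17, adjusted p = 0.0367) and the glucose transporter Slc2a1 higher (0.53 ± 0.12, adjusted p = 0.0469), and the median was -0.10. No gene was called among the receptor partners and phosphatases (smallest p at Ptprb, the phosphatase of Tek, 0.38 ± 0.11, adjusted p = 0.0842), the VEGF-responsive genes (Rcan1, -0.35 ± 0.10, 0.0735 after adjustment), Foxo1 and related factors (Klf2, -0.22 ± 0.09, 0.181) or the genes of Vegfc processing and lymphatics (Adamts3, a protease that helps activate Vegfc, -0.42 ± 0.11, 0.0636). Their medians were 0.13, 0.01, -0.21 and 0.03. Fits without mutant 1, mutant 2 or mutant 3 gave 0 calls among these genes, and the fit without wild-type 3 gave 2.

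**Figure D3:**
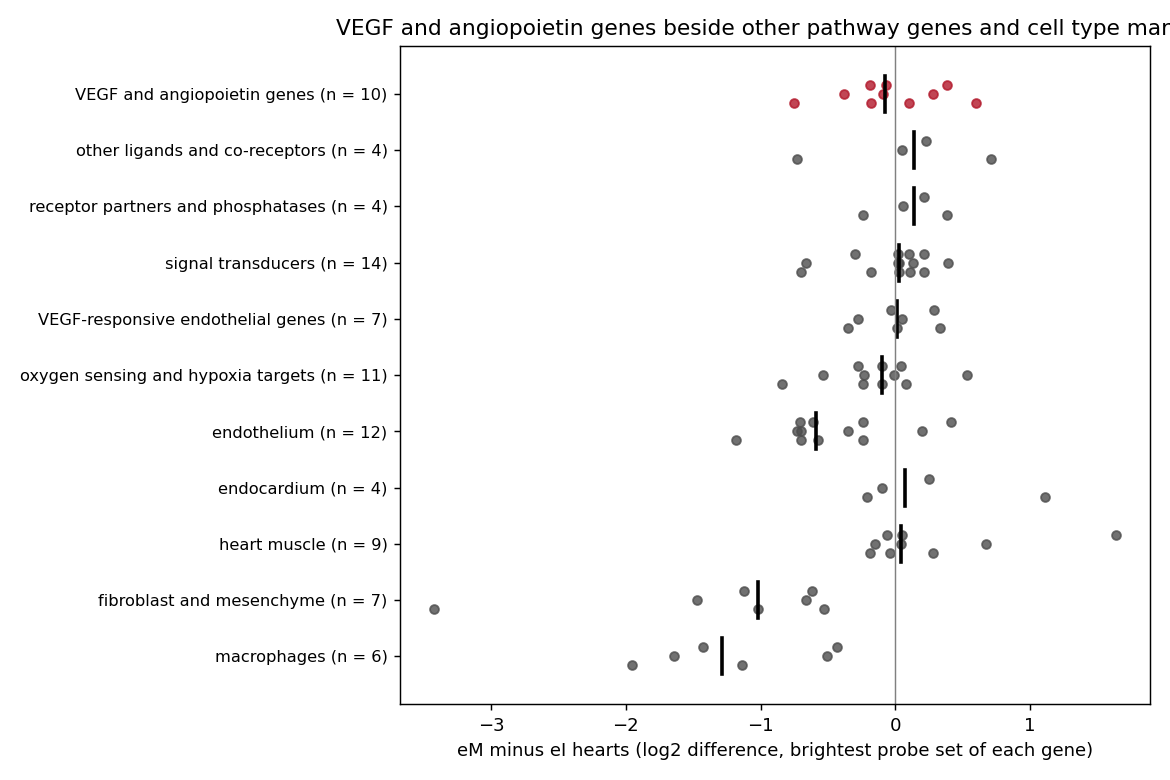
Log2 difference between eM and eI hearts for the 10 VEGF and angiopoietin genes (red) and for other pathway genes and cell type markers (grey), 1 point per gene at its brightest probe set, with a black line at the median. The 10 genes ran from -0.75 (Vegfc) to 0.60 (Angpt2) around a median of -0.08, the endothelial markers around -0.59 and the fibroblast markers around -1.02.

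Between genotypes the differences of these genes ran from -0.22 to 0.27 log2. Tie1, which was singled out by its difference, was the gene whose mutant hearts all lay above all wild-type hearts at the brightest probe set. Tie1 read 8.89, 8.62 and 8.65 in mutants 1 to 3, against 8.42, 8.50 and 8.43 in wild-types 1 to 3. The means were 8.72 ± 0.15 in mutant and 8.45 ± 0.04 in wild-type hearts (SD, n = 3 each), a difference of 0.27 ± 0.11 (SE), or 1.2-fold. It was 0.22 within the eM and 0.29 within the eI hearts. Mutant 1 was the highest heart, and without it the difference was 0.18. Xist was low in mutants 1 and 3 and as high in mutant 2 as in the wild-type hearts. With Xist as a covariate the difference was 0.16. Every wild-type heart had high Xist, so sex and genotype could not be fully told apart, and the part of sex was not tested. The mean of the endothelial markers was 8.92, 8.90 and 8.40 in the mutant and 8.83, 8.83 and 8.43 in the wild-type hearts. With that mean subtracted the difference of Tie1 was 0.22. The subtraction shifts the genotype difference of every probe set by the same amount, so it adds nothing about Tie1.

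The partner receptor Tek was not higher in mutants, at 10.49 ± 0.33 in mutant and 10.59 ± 0.12 in wild-type hearts. Its difference of -0.10 joined -0.35 within the eM to 0.02 within the eI hearts. The angiopoietins differed by 0.10 ± 0.11 (Angpt1) and 0.26 ± 0.28 (Angpt2) at their brightest probe sets. Angpt1 was even across the mutant hearts at 10.30, 10.33 and 10.30, and in the wild-type hearts it read 10.03, 10.24 and 10.34. Angpt2 read 5.92, 5.96 and 6.31 in mutant and 5.27, 5.79 and 6.37 in wild-type hearts, a difference of -0.05 within eM and 0.41 within eI. The difference of Angpt2 was -0.02 without wild-type 1 and 0.53 without wild-type 3, and that of Tek ran from -0.21 without mutant 2 to 0.09 without mutant 3.

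The VEGF receptors and ligands overlapped between genotypes at all probe sets but 1. Kdr averaged 9.53 ± 0.19 in mutant and 9.74 ± 0.24 in wild-type hearts, -0.22 ± 0.16, and the sign was the same within eM (-0.18) and within eI (-0.23). Flt1 gave differing signs by probe set: -0.04 at 1451756_at, -0.19 at 1419300_at, 0.07 at 1440926_at and 0.23 ± 0.10 at the dim 1454037_a_at. At this last one the mutant hearts (6.18, 6.30 and 6.09) all lay above the wild-type hearts (6.01, 5.92 and 5.96). Flt4 differed by 0.04 and 0.13 at its 2 probe sets, Vegfa by -0.05 and 0.09, and Vegfb by -0.04. Vegfc had -0.18, -0.07 and -0.15 at its 3 probe sets. These joined differences of -0.99 to -0.51 within the single eM pair to differences of 0.06 to 0.28 within the eI hearts. At the brightest probe sets, Vegfc ran from -0.37 without mutant 1 to 0.19 without mutant 3, and Kdr from -0.35 without wild-type 2 to -0.13 without mutant 1 or wild-type 3.

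In limma without a covariate, 0 of the 18 probe sets and 0% of all 27022 were called between genotypes. Mutant and wild-type hearts did not overlap at 2 of the 18, both higher in mutants, and at 4.67% of all probe sets. Differences were positive at 9 of the 18, with a median of 0.00 against 0.01 over all tested, and ran from -0.22 to 0.27. The median size without regard to sign was 0.12 against 0.08 over all tested. Since the genotype contrast was used to single out Tie1, nothing is read from these counts and medians. The interaction of genotype and letters, which asks whether the genotype difference is unlike in eM and eI hearts, called 0 of the 18 and 0% of all probe sets. At an unadjusted p under 0.05 it had 5.32% of all probe sets and 2 of the 18, both of Vegfc (1440739_at at -0.70 ± 0.20 and 1439766_x_at at -1.26 ± 0.31, adjusted p = 0.909 each), and that term rests on 1 pair of eM hearts.

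**Figure D4:**
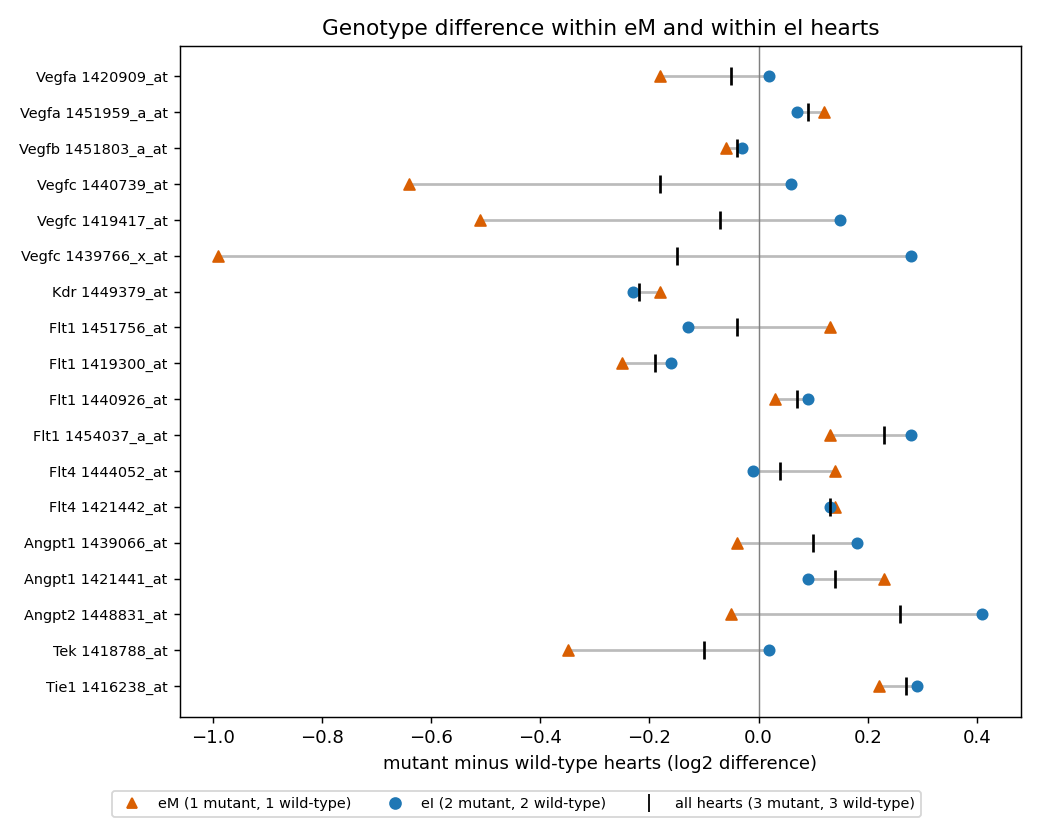
Log2 difference between mutant and wild-type hearts for the 18 tested probe sets, over all hearts (bars), within the eM pair (triangles) and within the 4 eI hearts (circles). The points of Tie1 (0.22 and 0.29) and Kdr (-0.18 and -0.23) lie close together, and those of the 3 Vegfc probe sets lie on opposite sides of 0.

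The genes most like these over the 6 hearts were searched among the other 13571 tested genes by Pearson correlation, as a description; with 6 points in 2 clusters and so many genes, a high value shows likeness in these arrays and no more. Closest to Tie1 were Rpusd1 (0.981), Crebzf (0.978) and Rpl39 (0.974), and Rpusd1 read 8.43, 8.23 and 8.25 in mutant against 8.13, 8.14 and 8.07 in wild-type hearts. Closest to Kdr were Alpk2 (0.989), Nol4l (0.985) and Slc12a5 (0.985). Closest to Vegfa were Sap30 (0.988), Slfn9 (0.988) and Cdyl (0.987). Closest to Tek were Pln, the phospholamban of heart muscle, Higd2a and Tmtc1, each at 0.999. Pln read 12.02 and 12.74 in the eM hearts and 13.08 to 13.20 in the eI hearts, with mutant 3 lowest as for Tek. Among the 10 genes, Tek and Vegfc correlated at 0.97 and Vegfc and Flt1 at -0.92 over the 6 hearts, which share the split by letters, whereas Tek and Tie1 correlated at -0.03.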

How the data were processed

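Per the labels' protocols, biotin-labelled RNA of 6 hearts was hybridised to 1 Affymetrix array each. The authors deposited log2 intensities from RMA, per the submitters' processing notes; the sources used here give no version or settings of it, and the distance of a probe set from background is unknown. RMA as usually run draws the arrays to a shared distribution, so a difference is relative to the other probe sets. Values ran from 2.42 to 14.79.

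Of 45101 probe sets, 64 controls were left out, and 34945 named 1 gene in the platform annotation; by gene ID, 34754 matched RefSeq (GRCm38.p6) and 0 symbols changed. The 40% of probe sets with the lowest mean (below 5.38) were not tested. limma 3.58.1 in R 4.3.3 (lmFit, eBayes, two-sided, Benjamini-Hochberg, threshold 0.05) was fitted on all 27022 others, and for other genes on the brightest probe set of 13572 genes. The fit was tested on simulated data. Figures used matplotlib 3.10.9 in Python 3.11.15. The number of arrays limits the precision. The design text speaks of 6 mice, and each array was taken as 1 animal.

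The members, lists and tests were chosen with earlier results of these data known. The rule for names was: the 10 genes with all probe sets, the called genes of each list or that of smallest p, and the 3 genes most correlated with Tie1, Kdr, Vegfa and Tek. Endothelial and other markers named beside them were chosen after their values were seen. Deviations from the group means correlated between hearts of the same replicate number at r = 0.18, 0.36 and 0.74 over tested probe sets. Mutant 2 with wild-type 1 gave 0.49 and mutant 1 with wild-type 2 gave 0.47, and number 3 is the eM pair. These values do not show that the numbers, which come from the titles alone, mark pairs. A block by number was therefore run only as an alternative. Alternatives were other filters, normalizations and variance models, blocks, covariates, subtraction of the endothelial mean, and leaving out each heart.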

Additional observations from a re-analysis of the deposited data

Results flagged for a closer look

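At 3 of the 18 probe sets every mutant eI heart lay on one side of every wild-type eI heart and the eM pair went the other way. The share of all probe sets with this pattern was not counted, so the count is not read as a result about these genes. The mutant minus wild-type difference in eM minus that in eI was 0.25 for Flt1 (1451756_at), -0.22 for Angpt1 (1439066_at) and -0.46 for Angpt2 (1448831_at). For Flt1 the eI hearts nearly touched, at 8.27 in both mutant 1 and wild-type 2. The interaction in limma gave adjusted p = 0.947, 0.957 and 0.944, so none of these differences passed the test. No heart stood out among the 4 eI hearts by Dixon's criterion at any of the 18 probe sets.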

How the results depend on the processing

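Calls between eM and eI hearts changed when hearts were left out. Among the alternatives, the share of all probe sets called was counted only with the endothelial mean subtracted. The other counts are therefore not read as results about these genes. The count of 1 of 18 ranged from 0 to 5 when hearts were left out in turn, and was 0 with no filter, 2 with quantile normalization (both Vegfc), 2 with trend and robust variances and 10 with the endothelial mean subtracted, where 67.3% of all probe sets were called. The count of other pathway genes, 5, ranged from 0 to 7 without single hearts and was 1 with no filter, 8 with the stricter filter that left out 60% and 9 with trend and robust variances.

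Single genes changed sign between eM and eI as follows. Without single hearts Vegfa ran from -0.19 to 0.01 and Angpt1 from -0.01 to 0.21, with the turned signs without mutant 3 and wild-type 3, and Angpt1 was -0.08 as the median of its probe sets. With the endothelial mean subtracted, Vegfa was 0.36, Vegfb 0.26, Flt4 0.28, Tek 0.07 and Tie1 0.39; that subtraction raises all differences by construction. For the other changes the cause was not tested.

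Between genotypes 0 probe sets were called under every alternative run. The replicate block pairs a mutant with a wild-type heart under each number. The median difference of 0.00 and that of Tie1, 0.27, were therefore fixed to stay as they were. Only the calls could change, and none did. The median was 0.08 in the eI hearts alone, 0.12 with Xist as a covariate, -0.04 with the stricter filter, and -0.02 to 0.10 without single hearts. Tie1 ran from 0.18 to 0.32 without single hearts. A replicate block could not be fitted for eM against eI, since number 3 is the eM pair, nor the interaction without an eM heart. Signal over background is unknown, which limits the dim probe sets.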
